A study of Mus musculus with 11 samples.

Results

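The glucocorticoid receptor, the genes that supply it with ligand and hold it ready, and its textbook direct targets were followed in the livers of FSH-treated and saline-treated female mice. The 10 genes were chosen by name from the 36788 gene identifiers measured, as textbook genes of this pathway, but with earlier results of these data known, so their count and median below describe them and are no independent evidence. They are the receptor gene Nr3c1, the ligand-supplying genes Hsd11b1 and Serpina6, the co-chaperone genes Fkbp4 and Fkbp5, and the target genes Tsc22d3, Zbtb16, Klf9, Sgk1 and Dusp1 (Fkbp5 is a target as well). All mice were labelled as wild-type C57BL/6 females older than 12 weeks, although the methods describe a mixed background with C57BL/6J for the study's mice. They had been ovariectomized (OVX) and fed a high-fat diet (HFD). The FSH group (n = 5, mice numbered 1, 2, 3, 4 and 6) received 30 IU/kg follicle-stimulating hormone daily, and the controls (n = 6, mice 1 to 6) received saline. There was no group with intact ovaries, on another diet or with a blocked or deleted receptor, and the hour at which livers were taken is not given in the sources used here. Nothing in the labels says more than that each library came from its own mouse, so the p-values below measure the spread between these livers.

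Corticosterone, the main glucocorticoid of the mouse, travels in blood bound to corticosteroid-binding globulin and enters cells freely. Inside the hepatocyte the receptor rests in the cytoplasm on Hsp90 with co-chaperones, binds the hormone, moves to the nucleus and switches genes on through a palindromic DNA sequence, the glucocorticoid response element. Genes such as Fkbp5, Tsc22d3, Zbtb16 and Klf9 are induced by the hormone in many tissues and are widely used to read receptor activity, and in liver the receptor is best known for driving gluconeogenesis and for its daily rhythm.

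Between 10801891 and 19909327 reads were counted on genes in each library (median 15482793 for FSH and 12593808.5 for saline). Values are CPM, the reads of a gene scaled to a library total of 1000000. At these depths a gene without a read could still have had up to 0.151 to 0.278 CPM, which covers counting error only. The defining hepatocyte genes Alb, Ttr, Apoa1, Serpina1a and Ahsg were high in every liver and 0 of these 5 were called, whereas the adipocyte genes Lep and Retn and the pancreatic genes Pnlip and Prss2 were at 0 in all 11. Among the markers of cholangiocytes, Kupffer, endothelial, stellate and lymphoid cells, Cd68 of Kupffer cells and Lyve1 of endothelial cells were lower and Krt7 of cholangiocytes was higher with FSH, and the others were not called. By the same test 10.6% of all genes were called. Krt7 was low, at 1.49 to 2.21 CPM in FSH and 0.81 to 1.31 CPM in saline livers. Sox9, also of cholangiocytes, went the other way (log2 fold change -0.50, limma adjusted p = 0.0545). The summed level of the 6 Kupffer markers was 93.3 to 255 CPM in FSH and 153 to 304 CPM in saline livers. Whether these shifts had a part in the results below was not tested, and in whole liver fewer cells of a type and less RNA per cell cannot be told apart.

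Of the 10 genes, 4 passed the test. Zbtb16, Klf9 and Fkbp4 were lower and Serpina6 was higher in FSH livers. Genes were compared with limma on log2(CPM + 0.5), and a gene was called when its p, adjusted over all 12733 genes tested (Benjamini-Hochberg), was under 0.05. This rule called 1350 genes, 10.6% of those tested, with 788 higher and 562 lower. Adding the threshold of an absolute log2 fold change over 1 left Zbtb16 and Klf9 among the 10, against 1.83% of all genes. The values of the groups did not overlap for Zbtb16, Klf9 and Serpina6, as was so for 6.67% of all genes. The median log2 fold change of the 10 genes was -0.60, and over all genes tested it was 0.02. The edgeR test on recovered reads called 6 of the 10 and 11.3% of all genes. The genes it added were Fkbp5 (edgeR adjusted p = 0.0497) and Dusp1 (edgeR adjusted p = 0.0499), and it kept the 4 above.

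**Figure D1:**
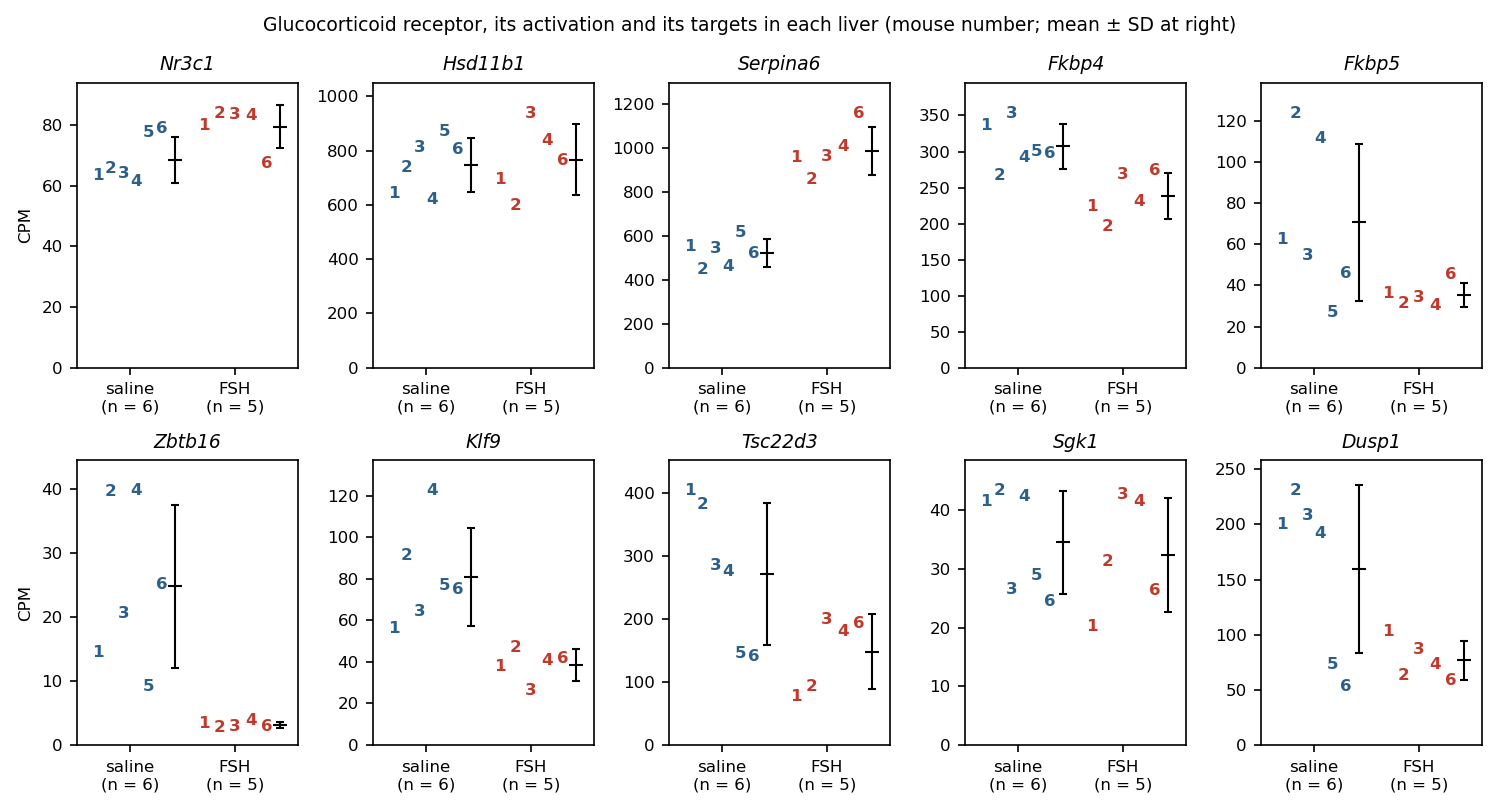
CPM of each gene in each liver, with the mouse number as the plotting symbol (blue, saline, n = 6; red, FSH, n = 5) and the mean ± SD in black at the right of each group. Zbtb16, Klf9 and Serpina6 separate the groups completely, while saline mice 5 and 6 fall near or within the FSH values for Tsc22d3 and Dusp1.

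The receptor gene itself, Nr3c1, lies on chromosome 18, from 39410545 to 39519421 on the minus strand (GRCm38). Nr3c1 measured 79.8, 83.7, 83.4, 82.9 and 67.1 CPM in FSH mice 1, 2, 3, 4 and 6. In saline livers it ranged from 61.5 to 78.8 CPM with a median of 64.9 CPM. Of the FSH livers, 4 lay above every saline liver and mouse 6 lay within the saline range. Saline mice 5 and 6 had the highest Nr3c1 of their group. The means were 79.4 ± 7.03 CPM (SD, n = 5) and 68.5 ± 7.62 CPM (SD, n = 6). On the log2 scale Nr3c1 differed by 0.21 (95% interval 0.01 to 0.41), which did not pass the correction (limma adjusted p = 0.166; exact two-sided permutation p = 0.0476 over 462 assignments). An increase of the receptor mRNA by more than 1.33-fold lay outside this interval.

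Serpina6, which encodes corticosteroid-binding globulin and is made by hepatocytes, rose 1.89-fold in FSH livers (95% interval 1.63 to 2.20). It lies at chr12:103646630-103657212 on the minus strand. The FSH livers held 957, 856, 960, 1005 and 1156 CPM. Saline livers held between 445 and 616 CPM, with a median of 531 CPM. Every FSH liver was above every saline liver, and the means differed by more than the SDs of both groups (means 987 ± 109 and 522 ± 63.2 CPM, SD, n = 5 and 6). Its log2 fold change was 0.92 with a standard error of 0.10 (limma adjusted p = 5.99e-05). The exact permutation p for Serpina6 was 0.00216, the smallest that 5 against 6 livers can give. Serpina6 kept its call whichever library was left out, with log2 fold changes between 0.86 and 0.97.

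Hsd11b1 encodes the enzyme that regenerates active corticosterone from its inactive keto form inside the hepatocyte, and its gene lies at chr1:193221634-193264075 on the minus strand. It measured 695, 598, 936, 838 and 763 CPM in the FSH livers. The saline livers ranged from 621 to 869 CPM with a median of 769.8 CPM, and all 6 lay inside the FSH range. Hsd11b1 differed by 0.03 on the log2 scale (95% interval -0.23 to 0.29; limma adjusted p = 0.920), so a change by more than 1.22-fold upward or below 0.85 of the saline level lay outside the interval.

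Fkbp4 encodes Fkbp52, the Hsp90 co-chaperone that promotes hormone binding and nuclear transport of the receptor, and lies at chr6:128429735-128438677 on the minus strand. The FSH livers held 223, 196, 268, 231 and 274 CPM of Fkbp4. The saline livers held 266 to 353 CPM with a median of 299 CPM. Only saline mouse 2 fell within the FSH range, and the other 5 saline livers lay above it. Fkbp4 was 0.77 times the saline level (log2 fold change -0.37, SE 0.10; limma adjusted p = 0.0313; exact permutation p = 0.00866). This call is close to the threshold. It was lost when FSH mouse 1, 2 or 4 or saline mouse 1 or 3 was left out (adjusted p = 0.0876, 0.0756, 0.0709, 0.0604 and 0.0707).

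Fkbp5 encodes Fkbp51, the co-chaperone that lowers the hormone affinity of the receptor and is induced by it, a short negative feedback loop. The gene lies at chr17:28399094-28517527 on the minus strand. It measured 36.3, 31.2, 34.0, 30.2 and 45.0 CPM in the FSH livers. In saline livers Fkbp5 ranged from 26.8 CPM in mouse 5 to 123 CPM in mouse 2, with a median of 58.3 CPM. The 5 other saline livers lay above every FSH liver, and mouse 5 lay below every one of them. The coefficient of variation was 54.1% in saline and 16.8% in FSH livers. At a log2 fold change of -0.82 (95% interval -1.47 to -0.17) Fkbp5 was not called (limma adjusted p = 0.102; exact permutation p = 0.0649). Without saline mouse 5 the estimate was -1.06 and the gene was called (adjusted p = 0.0142).

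**Figure D2:**
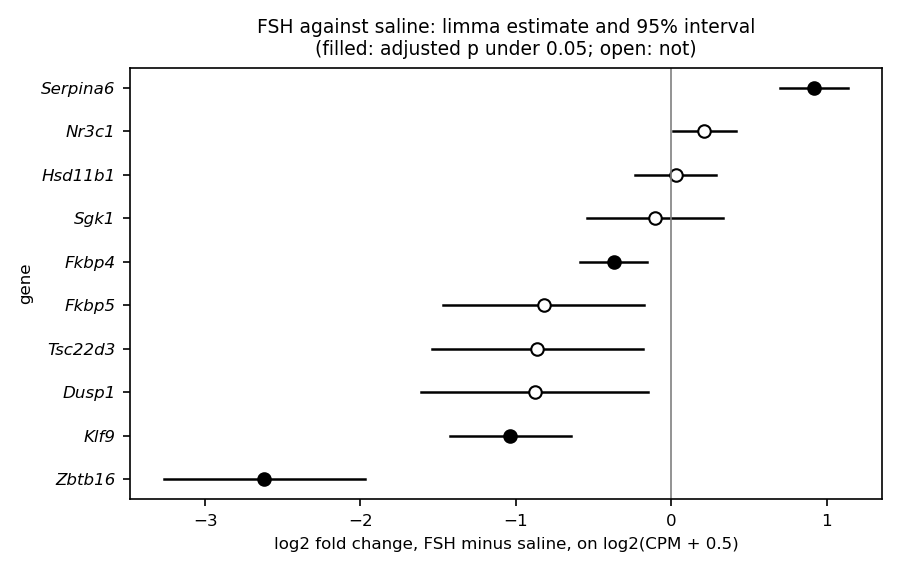
The log2 fold change of each gene (FSH minus saline, on log2(CPM + 0.5)) with its 95% interval from limma; filled circles mark an adjusted p under 0.05. The estimates run from -2.62 for Zbtb16 to 0.92 for Serpina6, and the intervals of Hsd11b1 and Sgk1 include 0.

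Among the direct targets, Zbtb16 showed the largest difference of the 10 genes. It encodes PLZF, a zinc-finger repressor that glucocorticoids induce strongly, and lies at chr9:48654297-48836222 on the minus strand. Zbtb16 measured 3.42, 2.80, 2.89, 3.88 and 2.89 CPM in the FSH livers, from 68, 38, 51, 60 and 33 reads. In saline livers it ranged from 9.17 CPM in mouse 5 to 39.8 CPM in mouse 4, with a median of 22.9 CPM. The lowest saline liver was above the highest FSH liver, and the FSH livers lay close together (coefficient of variation 14.5%, against 51.4% in saline). Saline livers were 6.14-fold higher than FSH livers (log2 fold change -2.62, SE 0.30; limma adjusted p = 8.5e-05; exact permutation p = 0.00433). Leaving out any single library kept the call, with log2 fold changes between -2.86 and -2.45.

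Klf9 encodes a Krüppel-like repressor that responds to glucocorticoids and also cycles with the clock, and lies at chr19:23141226-23168134 on the plus strand. The FSH livers held 37.6, 47.0, 26.4, 40.6 and 41.9 CPM of Klf9. The saline livers held 56.1 CPM in mouse 1 to 122 CPM in mouse 4, with a median of 75.8 CPM. No FSH liver reached the lowest saline liver. Klf9 was 2.05-fold higher in saline (log2 fold change -1.03, SE 0.18; limma adjusted p = 0.00226; exact permutation p = 0.00433). It stayed called without any 1 library, but its log2 fold change was then within 1 of 0 without FSH mouse 3 (-0.90) or saline mouse 2 (-0.99) or 4 (-0.91).

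Tsc22d3 encodes Gilz, which carries much of the anti-inflammatory action of glucocorticoids, and lies at chrX:140539528-140600659 on the minus strand. It measured 76.7, 92.6, 199, 181 and 193 CPM in FSH mice 1, 2, 3, 4 and 6. Saline livers ranged from 140 CPM in mouse 6 to 404 CPM in mouse 1, with a median of 280.4 CPM. Saline livers 1 to 4 lay above all FSH livers, whereas saline livers 5 and 6 lay inside the FSH range. Its log2 fold change was -0.86 (95% interval -1.54 to -0.18), and Tsc22d3 was not called (limma adjusted p = 0.102; exact permutation p = 0.0498). Without saline mouse 6 it was -1.03 and the adjusted p was 0.0497.

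Dusp1 encodes a phosphatase that switches off MAP kinases. It is induced by glucocorticoids and, as an immediate early gene, by stress, and it lies at chr17:26505590-26562128 on the minus strand. The FSH livers held 103, 63.1, 86.7, 73.0 and 58.4 CPM of Dusp1. Saline livers held 52.9 CPM in mouse 6 to 231 CPM in mouse 2, with a median of 196 CPM. Saline livers 1 to 4 lay above all FSH livers, mouse 5 lay among them and mouse 6 below them. Dusp1 differed by -0.88 on the log2 scale (95% interval -1.61 to -0.15; limma adjusted p = 0.120; exact permutation p = 0.0714), so it was not called. Without saline mouse 6 it was called, with a log2 fold change of -1.16 (adjusted p = 0.0140). Exons of Dusp1 overlap those of Ergic1 on the other strand, and the use of strand in counting is not given in the sources used here.

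Sgk1 encodes a kinase that promotes sodium transport and cell survival and answers to glucocorticoids, mineralocorticoids and insulin. Its gene lies at chr10:21882184-21999903 on the plus strand. Sgk1 measured 20.1, 31.3, 42.7, 41.5 and 26.4 CPM in the FSH livers. Saline livers ranged from 24.4 to 43.3 CPM with a median of 35.2 CPM, and 5 of the 6 lay inside the FSH range. Its log2 fold change of -0.10 had a 95% interval of -0.54 to 0.33 (limma adjusted p = 0.811; exact permutation p = 0.673), and its sign was not stable, since it was 0.053 without FSH mouse 1.

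A window around a transcription start is shown for each target gene with such a sequence, since the element that the receptor binds was spelled out in a window of Sgk1. RefSeq sequences of GRCm38.p6, from 250 bases before to 50 bases after a start, were matched by symbol for 7 of the 10 genes, 14 windows in all (6 for Sgk1, 3 for Tsc22d3). Nr3c1, Zbtb16 and Serpina6 had no entry. They are written 5′ to 3′ in the direction of the gene, with capitals for the letters searched on both strands: the full element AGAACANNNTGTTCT, its single arm AGAACA, the E-box CACGTG bound by the clock factors, and the D-box TTATGTAA bound by Dbp and its relatives. An arm inside a full element is counted as an arm too.
Sgk1, chr10:21993640-21993939, plus strand: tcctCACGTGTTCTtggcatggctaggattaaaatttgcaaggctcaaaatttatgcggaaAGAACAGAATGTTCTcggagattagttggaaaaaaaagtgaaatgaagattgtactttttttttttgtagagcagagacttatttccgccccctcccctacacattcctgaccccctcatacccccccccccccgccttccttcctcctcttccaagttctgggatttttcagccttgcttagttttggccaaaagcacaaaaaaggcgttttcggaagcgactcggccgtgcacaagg
Tsc22d3, chrX:140600473-140600772, minus strand: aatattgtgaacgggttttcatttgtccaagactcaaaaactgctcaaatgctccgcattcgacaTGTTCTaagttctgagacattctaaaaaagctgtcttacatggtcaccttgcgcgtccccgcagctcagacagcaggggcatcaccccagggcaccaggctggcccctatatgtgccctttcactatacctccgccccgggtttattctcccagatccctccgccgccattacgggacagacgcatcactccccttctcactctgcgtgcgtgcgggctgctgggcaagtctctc
Klf9, chr19:23140976-23141275, plus strand: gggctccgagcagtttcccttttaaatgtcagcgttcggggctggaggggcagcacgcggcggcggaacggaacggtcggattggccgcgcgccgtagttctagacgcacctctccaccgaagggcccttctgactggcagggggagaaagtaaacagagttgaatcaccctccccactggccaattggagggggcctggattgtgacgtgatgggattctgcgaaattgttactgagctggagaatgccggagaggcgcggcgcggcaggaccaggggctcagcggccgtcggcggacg
Fkbp5, chr17:28486100-28486399, minus strand: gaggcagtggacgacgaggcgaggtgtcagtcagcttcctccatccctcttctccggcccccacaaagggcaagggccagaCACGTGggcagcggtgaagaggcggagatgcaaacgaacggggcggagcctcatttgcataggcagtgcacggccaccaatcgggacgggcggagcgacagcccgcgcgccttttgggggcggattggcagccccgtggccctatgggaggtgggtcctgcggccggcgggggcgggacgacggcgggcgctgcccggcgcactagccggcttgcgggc
Dusp1, chr17:26508423-26508722, minus strand: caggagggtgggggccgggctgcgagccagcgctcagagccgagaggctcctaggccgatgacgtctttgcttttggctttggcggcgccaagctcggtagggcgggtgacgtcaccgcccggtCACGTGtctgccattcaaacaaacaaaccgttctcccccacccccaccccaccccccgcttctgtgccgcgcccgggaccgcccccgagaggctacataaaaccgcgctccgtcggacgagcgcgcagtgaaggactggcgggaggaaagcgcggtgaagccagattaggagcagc

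In the Sgk1 window the full element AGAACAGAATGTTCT begins 189 bases upstream of the start, and its letters occur in 3 of 32851 RefSeq promoter windows (0.00913%), Sgk1 included. A further arm in the same window, 242 bases upstream, shares bases with an E-box at 246. The single arm was found in 4 of the 14 windows, 3 of Sgk1 and 1 of Tsc22d3 (185 bases upstream), and in 19.0% of all windows. The E-box was found in 1 window each of Sgk1, Fkbp5 (169 bases upstream) and Dusp1 (126 bases upstream), and in 7.15% of all windows. The D-box was in none of the 14 and in 0.938% of all. Of the printed windows, that of Klf9 is at the outermost start in the GENCODE annotation, and those of Sgk1, Tsc22d3, Fkbp5 and Dusp1 belong to starts inside the annotated span of the gene. Klf9, the only called target with an entry, held none of the searched letters. Sgk1, whose window held the full element, was not called. Only exact letters within these windows were searched. The matches describe letters only and say nothing of binding, or of why a gene was called or not, in these livers.

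The livers differed among themselves in which targets were high. In the saline group, mouse 2 or mouse 4 had the highest Fkbp5, Zbtb16, Klf9, Sgk1 or Dusp1, and mouse 1 the highest Tsc22d3. Saline mouse 5 had the lowest Zbtb16 and Fkbp5, and mouse 6 the lowest Tsc22d3, Sgk1 and Dusp1. Tsc22d3 and Dusp1 stood between -1.38 and -0.78 relative to the saline mean in saline mice 5 and 6, on the log2 scale. Klf9, Serpina6 and Fkbp4 in those livers stayed within 0.25 of the saline mean. Zbtb16 in mouse 6 was 0.19 above the saline mean, and the targets did not follow a single order across livers. Within the FSH group, mice 1 and 2 had lower Tsc22d3 (76.7 and 92.6 CPM) than the other 3, whose lowest value was 181 CPM. Dusp1 was highest in mouse 1 of that group.

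**Figure D3:**
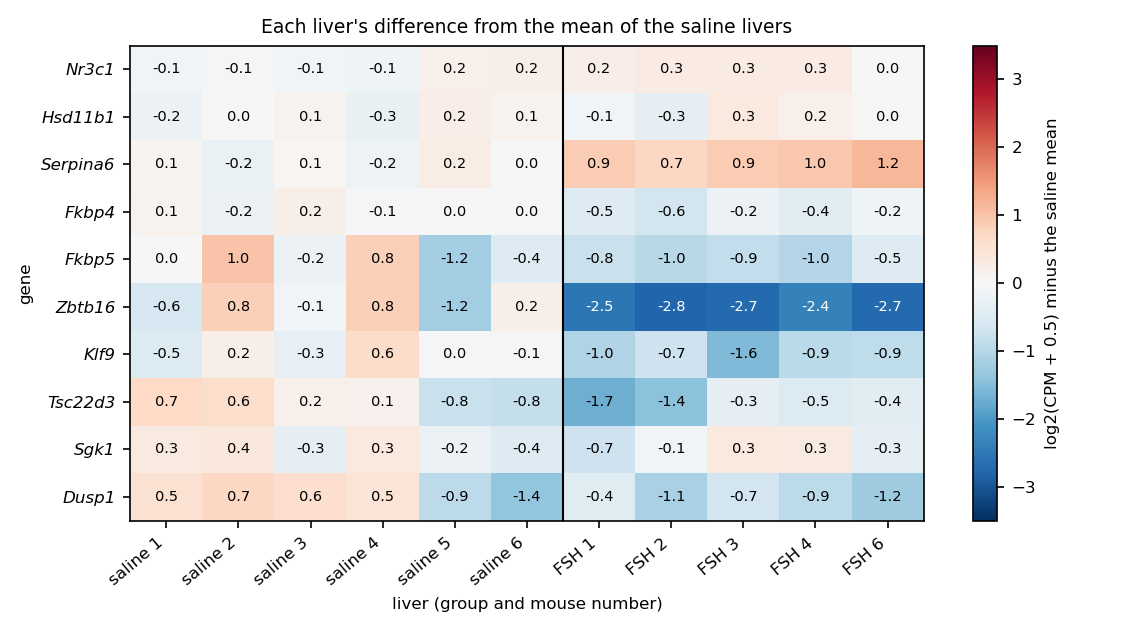
Each liver's log2(CPM + 0.5) minus the mean of the 6 saline livers, for each gene (rows) and liver (columns, saline left of the line and FSH right). Zbtb16 is 2.4 to 2.8 lower in each FSH liver and Serpina6 0.7 to 1.2 higher, whereas Tsc22d3 and Dusp1 are also low in saline mice 5 and 6.

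Per length of exon, the order of the levels was nearly the same in both groups. In saline livers Serpina6 came first at 297 ± 35.9 CPM per kb (SD, n = 6), followed by Hsd11b1 at 176 ± 23.3 and Fkbp4 at 110 ± 11.3 CPM per kb. Tsc22d3 (62.7 ± 25.9 CPM per kb) and Dusp1 (48.1 ± 23.0 CPM per kb) came next and overlapped in their spread. Klf9 stood at 16.8 ± 4.89, Nr3c1 at 8.91 ± 0.992, Fkbp5 at 7.46 ± 4.04, Sgk1 at 7.03 ± 1.79 and Zbtb16 at 4.70 ± 2.41 CPM per kb, and the last 4 overlapped in their SDs, neighbour by neighbour. In FSH livers the first 5 kept this order, with Serpina6 at 560 ± 62.2 CPM per kb. Below them Nr3c1 stood at 10.3 ± 0.915 CPM per kb, Klf9 at 8.04 ± 1.59, Sgk1 at 6.61 ± 1.98 and Fkbp5 at 3.73 ± 0.626 CPM per kb. Zbtb16 was last at 0.601 ± 0.0872 CPM per kb, clear of all others. These lengths are of all annotated exons joined, so a level of a gene with long rarely used exons is understated.

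The machinery around the receptor was read through a list of 16 other chaperones and co-chaperones. Of these, 5 were lower and 0 higher with FSH, where 10.6% of all genes tested were called. The median log2 fold change of the 16 was -0.18. The 3 with the largest changes were Hsp90aa1, the inducible Hsp90 (log2 fold change -1.05, limma adjusted p = 0.00155), Stip1, which hands clients from Hsp70 to Hsp90 (-0.77, adjusted p = 0.00122), and Hsp90ab1, the constitutive Hsp90 (-0.60, adjusted p = 0.00231). Hsp90aa1 held 146 to 252 CPM in FSH and 284 to 511 CPM in saline livers, and Hsp90ab1 held 745 to 1041 and 1119 to 1495 CPM. Neither overlapped between the groups. Of 17 coregulators, which carry the receptor's signal to chromatin, 0 were called by limma, and 1 had an unadjusted p under 0.05. The smallest p was that of Crebbp, a histone acetyltransferase (log2 fold change -0.35, adjusted p = 0.105). edgeR called 0 of the 17 as well.

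Among 9 genes of steroid metabolism and transport, 7 could be tested and 3 were called, against 10.6% of all genes tested. Abcb1a, a drug efflux pump, rose (log2 fold change 1.32, limma adjusted p = 0.00136), with 13.1 to 20.9 CPM in FSH and 3.98 to 10.04 CPM in saline livers. Its relative Abcb1b was not called (log2 fold change 0.29, adjusted p = 0.793). Nr3c2, the mineralocorticoid receptor, which also binds corticosterone, rose by 0.60 on the log2 scale (adjusted p = 0.0244). H6pd, which makes the cofactor that Hsd11b1 uses, fell by 0.55 on the log2 scale (adjusted p = 0.0236). Hsd11b2, the enzyme that inactivates corticosterone, was nearly absent, with 0 reads in 10 of the 11 libraries. Without FSH mouse 1 the number of genes called in this list was 1.

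Of 25 other genes known to be induced by glucocorticoids, 7 were lower and 1 was higher with FSH, and 22 had a negative log2 fold change (median -0.70). Over all 12733 genes tested, 10.6% were called and 5860 had a negative log2 fold change. Cdkn1a, a cell-cycle inhibitor, held 43.4 to 187 CPM in saline livers and fell to between 2.66 and 11.4 CPM in FSH livers (log2 fold change -4.09, limma adjusted p = 1.78e-05). Mt2, a metallothionein, fell by 2.29 on the log2 scale (adjusted p = 0.0382), but its saline values ran from 22.9 to 554 CPM and overlapped the FSH values. Gadd45b, a stress-response gene, fell by 1.76 on the same scale (adjusted p = 0.00523). Per2, a clock gene with a receptor-bound enhancer, was the 1 that was higher (log2 fold change 0.75, adjusted p = 0.0150). Of 12 inflammatory genes that glucocorticoids repress, 5 were high enough to test. Among them only Vcam1, an adhesion molecule, was called, and it fell by 0.71 on the log2 scale (adjusted p = 0.0106). These lists were drawn up with earlier results of these data known, so their counts describe them and are no independent evidence of a direction.

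**Figure D4:**
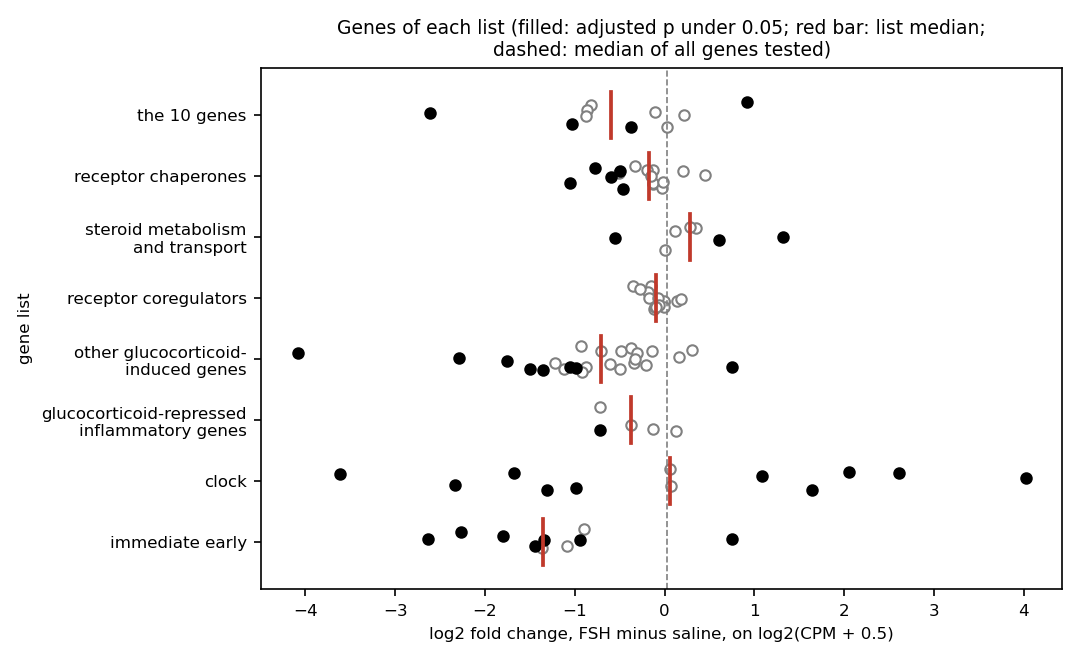
The log2 fold change (FSH minus saline) of every tested gene of each list, with filled circles for an adjusted p under 0.05, a red bar at the list median and a dashed line at the median of all genes tested. The medians run from -1.35 for immediate early genes to 0.29 for steroid metabolism and transport, and the clock genes lie far out on both sides of 0.

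Clock and immediate early genes moved with the same comparison, and both touch the targets above. Of 12 clock genes 10 were called, 5 in each direction, and all 10 had values that did not overlap between the groups. Over all genes tested, 10.6% were called and 6.67% did not overlap. Dbp, an output factor of the clock, stood at 42.6 to 121 CPM in FSH and 3.40 to 4.95 CPM in saline livers (log2 fold change 4.02, limma adjusted p = 1.15e-07). Per3, a repressor of the loop, held 15.9 to 38.6 against 2.59 to 5.53 CPM (log2 fold change 2.61). Npas2 was at 0 reads in 4 of 5 FSH livers and at 4.64 to 7.14 CPM in saline livers. Arntl, the core activator, held 2.06 to 5.08 CPM in FSH and 13.2 to 22.8 CPM in saline livers (log2 fold change -2.33). Klf9 and Per2 are themselves known to cycle over the day in liver. With the hour of collection not given, hour and treatment cannot be told apart for these genes or for the other targets, Zbtb16 included. The part of the clock shift in the differences of the 10 genes was not tested.

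Of 10 immediate early genes 6 were lower and 1 was higher, where 10.6% of all genes tested were called. Fos stood at 1.76 to 3.40 CPM in FSH and 3.55 to 85.0 CPM in saline livers (log2 fold change -2.63, limma adjusted p = 0.0121). Egr1 (log2 fold change -2.26) and Jun (-1.80) changed most after Fos. The labels describe a papain digestion of whole liver before extraction, in words that cover both groups, whereas the methods describe purification from liver tissue without it. Dusp1 belongs to the same class of genes. Saline mouse 6 was lowest for both Fos (3.55 CPM) and Dusp1 (52.9 CPM), saline mouse 3 was highest for Fos and held 208 CPM of Dusp1, and saline mouse 2 was highest for Dusp1 and held 9.02 CPM of Fos. The part of the immediate early response in the difference of Dusp1 was not tested.

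For each called gene, the genes that varied most like it among livers were found by Pearson's r of log2 values centred on the group means, over 11 livers and 8889 genes. Among the genes most like Fkbp4 were Stip1 (r = 0.930) and Hsp90aa1 (r = 0.917). For Zbtb16 they were Ripk4 (r = 0.937), Dcaf6 (r = 0.928) and Gm16573 (r = 0.925). For Klf9 they were Mau2 (r = 0.963), Pogz (r = 0.945) and Rusc2 (r = 0.932), and for Serpina6 they were Slc39a4 (r = 0.904), Gstm1 (r = 0.902) and Cars (r = 0.895). Each was picked as the highest among all the genes compared, and the livers share depth and handling within a library. Among these genes, Stip1, Hsp90aa1, Mau2, Rusc2 and Gstm1 also differed between the groups in the limma test.

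**Figure D5:**
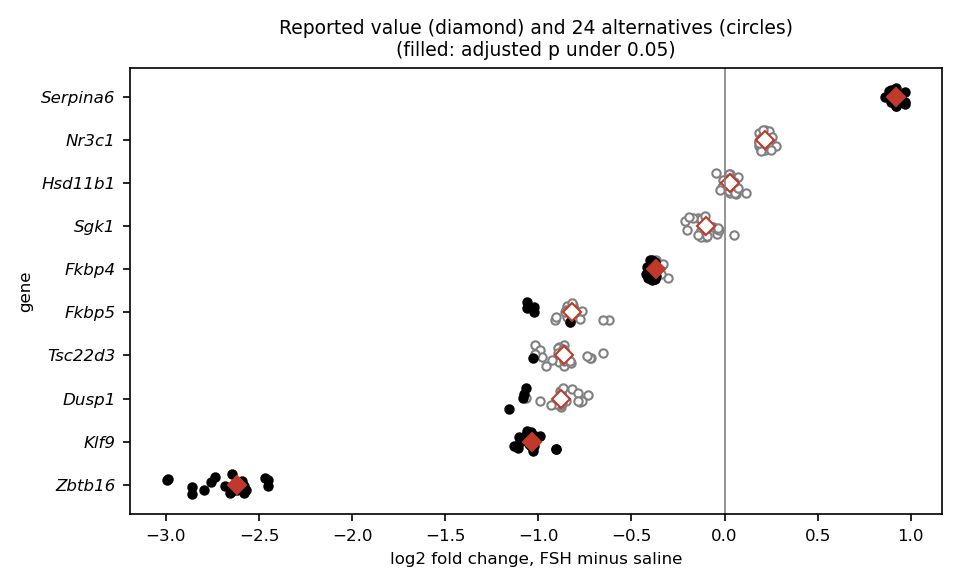
The log2 fold change of each gene as reported (diamond) and under 24 other settings of the analysis (circles), with filled symbols for an adjusted p under 0.05. Zbtb16, Klf9 and Serpina6 are filled throughout, Fkbp4 is filled or open, and Fkbp5, Dusp1 and Tsc22d3 become filled under some settings.

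Under 24 other settings of the analysis, Zbtb16, Klf9 and Serpina6 were called every time, and Nr3c1, Hsd11b1 and Sgk1 were called in none. Fkbp5 was called in 5, Dusp1 in 4 and Tsc22d3 in 1, all with a negative log2 fold change. Fkbp4 was not called in 7 of the 24.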

How the data were processed

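Liver RNA of 5 FSH-treated and 6 saline-treated OVX/HFD mice was sequenced as read pairs. Per the labels, the submitters' processing notes name FastQC 0.11.2, Trim Galore 0.3.3, cutadapt, STAR and RSEM and the build mm10. Annotation and use of strand are not given in the sources used here. The authors deposited CPM values for 36788 Ensembl identifiers, unfiltered, and 35555 were named from GENCODE M21. Each library's CPM step gave whole reads for 100% of values (within 0.02 reads), which gave the depths.

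A filter at a mean of 0.5 CPM left 12733 genes, which were tested with limma 3.58.1 in R 4.3.3 (eBayes with trend) on log2(CPM + 0.5), a scale that understates changes of low genes. Single genes also had an exact permutation test over 462 assignments. edgeR 4.0.16 and DESeq2 1.42.0 on recovered reads, voom, other pseudocounts, filters and scalings, array weights, a replicate block and leaving out libraries were alternatives. The limma fit was tested on simulated data with 200 changed genes. Libraries of a group all differed by more than sampling noise. Named genes were the 10, the 3 largest called changes of each list or otherwise the smallest p, Hsp90aa1, Hsp90ab1, Abcb1a, Dbp, Arntl and Per3, and the 3 genes most like each called one, of which some are not reported here. The 10 genes and the lists were chosen with earlier results of these data known.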

Additional observations from a re-analysis of the deposited data

Results flagged for a closer look

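Nr3c1 in FSH mouse 6 was 67.1 CPM, below the other 4 FSH livers, of which the nearest was at 79.8 CPM. The gap was 0.762 of the whole range of the group, which marks it as far from the others. Of the 20 groups of values checked this was the only one so marked, and chance alone marks about 1 in 20. In saline livers the receptor gene ran from 61.5 to 78.8 CPM, so this liver lay within the saline range.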

How the results depend on the processing

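Of the 10 genes, between 3 and 6 were called when 1 library was left out, and also under the other settings. The number past both thresholds was 2, and it was 4 with edgeR, with DESeq2 and with the replicate block, and between 1 and 4 when 1 library was left out. Over all genes, 1350 were called, and between 803 (without FSH mouse 1) and 1659 (without FSH mouse 6) when 1 library was left out. The steroid metabolism list had between 1 and 3 called genes, and the coregulators between 0 and 1, when 1 library was left out. The log2 fold change of Hsd11b1 ran from -0.048 to 0.11 when 1 library was left out and turned negative without FSH mouse 3 (-0.048) or 4 (-0.0079) or without saline mouse 1 (-0.012) or 4 (-0.023), and that of Sgk1 ran from -0.21 to 0.053 and turned positive without FSH mouse 1, with neither gene called. Fkbp4 lost its call with no filter (adjusted p = 0.0516) and with no trend (0.0531). Correlations of same-numbered livers ran from -0.07 to 0.36 over 5 pairs. Livers of different numbers were not set beside them, so whether the replicate numbers pair the livers is not settled. A block on the replicate numbers used 10 libraries, without saline mouse 5. It called 6 of the 10 genes, with Fkbp5 at -1.06 (adjusted p = 0.0272) and Dusp1 at -1.07 (0.0169). Depth limits Zbtb16 most among the 10 genes, since its FSH values rest on 33 to 68 reads.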
